A study of Mus musculus with 2 samples.

Results

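The interferon response genes described here are 39 mouse genes whose transcripts are raised by type I interferon and, for some, by interferon gamma. They were chosen by name and not by their values. Of the 39, 35 had a row under their own symbol among the 35976 genes of the count tables. A further 3, Ifi208, Ifi209 and Ifi213, had a row under the older symbols Pydc3, Pyhin1 and Pydc4 and are given apart from the 35. Ifi206 was not analysed here. All values are from single OTII CD4 T cells, which carry a transgenic receptor for ovalbumin and were transferred into host mice. The control hosts were C57BL/6 mice, and the other hosts were IL13Ra1f/f, CD11cCre/+ mice, in which the floxed Il13ra1 gene is cut out in cells that express CD11c, mainly dendritic cells. The labels name no deletion in the transferred T cells themselves. Spleen cells were sorted on day 7 as propidium iodide negative, V beta 5.1-5.2 positive and CD4 positive. The protocol names no congenic marker, and host CD4 T cells with the same V beta chains could pass this gate. The question behind the design was the part of the IL-13 signal in the making of follicular helper T cells.

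Each group was 1 pooled sample, from 2 control mice and from 3 deleted mice, sorted into 4 plates of 92 cell wells, which gives 368 cells per pool. With 1 sample per group no test between groups was possible and there is no replicate check. The 4 plates of a pool are splits of the same animals, and plate and pool cannot be told apart. The control pool held 573105030 reads in genes and the deleted pool 542650671, with plates between 125197307 and 148025125. Levels are reads per 1000000 reads in genes (CPM), summed over the cells of a plate or pool. The summed level of 8 CD4 T cell markers was 6943 CPM in control and 7096 CPM in deleted cells, and that of 6 B cell markers was 5.10 and 6.32 CPM. Of the wells, 2 from deleted hosts held only 71129 reads (plate 1) and 9905 reads (plate 4), so that 1 read in such a well already exceeds the 10 CPM at which a cell is called positive for a gene. No member had 5 reads in either well, yet 13 and 12 members counted as positive there. The 9 control wells without a cell held 6698 to 12348 reads. By depth, the cell well with 9905 reads cannot be told from a well without a cell. The main counts and ratios over cells are therefore also given without the 2 shallow wells from deleted hosts.

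Type I interferons bind the receptor made of Ifnar1 and Ifnar2, and the kinases Jak1 and Tyk2 then pass the signal on by phosphorylation. Stat2 and Irf9 are parts of the complex that binds the interferon-stimulated response element in the promoters of its target genes, while the gamma-activated site is used mainly after interferon gamma. The targets include sensors of foreign RNA, proteins that block viral translation or release, guanylate-binding proteins, and the pathway's own factors and brakes. T cells respond to interferon as well, and resting cells keep a low level of some targets.

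The response element was searched as GAAA, any 2 bases, GAAA on both strands of the RefSeq promoter table for GRCm38.p6, which gives 250 bases before and 50 bases after each transcript start. Of the 39 members, 31 had an entry and 21 of these (67.7%) held the element, while 3.99% of all 27025 genes with an entry did. Isg15 held 3 matches, and Bst2, Ddx60, Ifit1, Ifit3, Ifit3b and Oas1a held 2 each. No match lay in the window of Ifi209, Ifi35, Ifi44, Irf7, Irf9, Isg20, Oasl2, Phf11d, Slfn1 or Xaf1. Usp18, Rtp4, Zbp1, Mx1, Gbp4, Gbp9, Ifi27l2a and Parp14 had no entry. The gamma-activated site, searched as TTC, any 3 bases, GAA, lay in 5 of the 31 (16.1%), against 9.55% of all genes. A match describes the sequence and is not evidence of binding.

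Printed below are the promoters of 3 members that were often read in the same cells as other members, Ifit1, Oas1a and Bst2, and of Irf9, whose plates did not overlap between the pools. They are written from 5′ to 3′ in the direction of transcription, with the element in capitals. Ifit1 is at chr19:34640639-34640938 on the plus strand, Oas1a at chr5:120907476-120907775 on the minus strand, Bst2 at chr8:71537423-71537722 on the minus strand and Irf9 at chr14:55603735-55604034 on the plus strand.
Ifit1: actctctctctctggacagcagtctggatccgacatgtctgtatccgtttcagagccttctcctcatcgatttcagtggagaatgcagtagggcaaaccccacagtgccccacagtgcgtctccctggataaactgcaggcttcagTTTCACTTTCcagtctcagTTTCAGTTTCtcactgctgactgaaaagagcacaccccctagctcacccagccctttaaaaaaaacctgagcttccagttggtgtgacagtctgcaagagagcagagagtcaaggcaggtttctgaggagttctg
Oas1a: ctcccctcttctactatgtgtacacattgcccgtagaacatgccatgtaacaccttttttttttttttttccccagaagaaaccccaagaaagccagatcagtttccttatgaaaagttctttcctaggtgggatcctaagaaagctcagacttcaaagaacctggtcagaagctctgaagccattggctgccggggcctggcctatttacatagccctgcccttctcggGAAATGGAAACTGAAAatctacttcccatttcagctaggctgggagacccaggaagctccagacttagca
Bst2: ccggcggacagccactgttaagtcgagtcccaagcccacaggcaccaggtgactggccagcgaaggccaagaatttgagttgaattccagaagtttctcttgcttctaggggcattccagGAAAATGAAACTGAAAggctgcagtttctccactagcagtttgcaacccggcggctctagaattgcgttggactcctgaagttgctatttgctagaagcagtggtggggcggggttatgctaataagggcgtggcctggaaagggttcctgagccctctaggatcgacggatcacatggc
Irf9: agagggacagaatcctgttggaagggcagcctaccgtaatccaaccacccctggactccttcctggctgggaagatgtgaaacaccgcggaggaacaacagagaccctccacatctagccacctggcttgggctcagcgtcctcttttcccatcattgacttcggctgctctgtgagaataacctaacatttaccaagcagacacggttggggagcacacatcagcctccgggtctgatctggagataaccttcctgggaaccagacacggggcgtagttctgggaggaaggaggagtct
In Ifit1 the 2 elements are separate, are read on the opposite strand and begin 104 and 85 bases before the transcript start. In Oas1a and Bst2 the 2 matches overlap in a single run that begins 20 and 130 bases before the start. The printed Irf9 window holds none.

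Most members were at like levels in the pools. Of the 35 members with a row, 29 reached 5 CPM in either pool and are called measured. The log2 ratio is that of deleted to control CPM with 1 added to each, and its median over the 29 was -0.01, beside -0.04 over all 9764 measured genes. A ratio above 0 was found for 14 of the 29 (48.3%), and for 46.3% of all measured genes. All but 1 of the 29 lay within 2-fold. The exception was Ifit3, which was lower in deleted hosts, where 6.71% of all measured genes were at least 2-fold lower and 5.98% at least 2-fold higher. No member was 2-fold higher, and the highest log2 ratio was 0.75, for Oas1a. Every control plate lay above every deleted plate for 2 members, Ifit3 and Irf9, and the reverse held for none. Of all measured genes, 2.6% were non-overlapping and lower and 1.81% were non-overlapping and higher. The summed level of the 35 members was 2594 CPM in control cells, with plates from 2120 to 3049, and 2325 CPM in deleted cells, with plates from 2153 to 2543, so the plates of the pools overlapped. With each plate left out in turn, 14 of the 29 members (9 lower and 5 higher in deleted hosts) kept 1 sign of the log2 ratio, while 58.2% of all measured genes did so (32.3% lower and 25.9% higher). For the other 15 the sign turned, so that their direction hung on single plates.

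**Figure D1:**
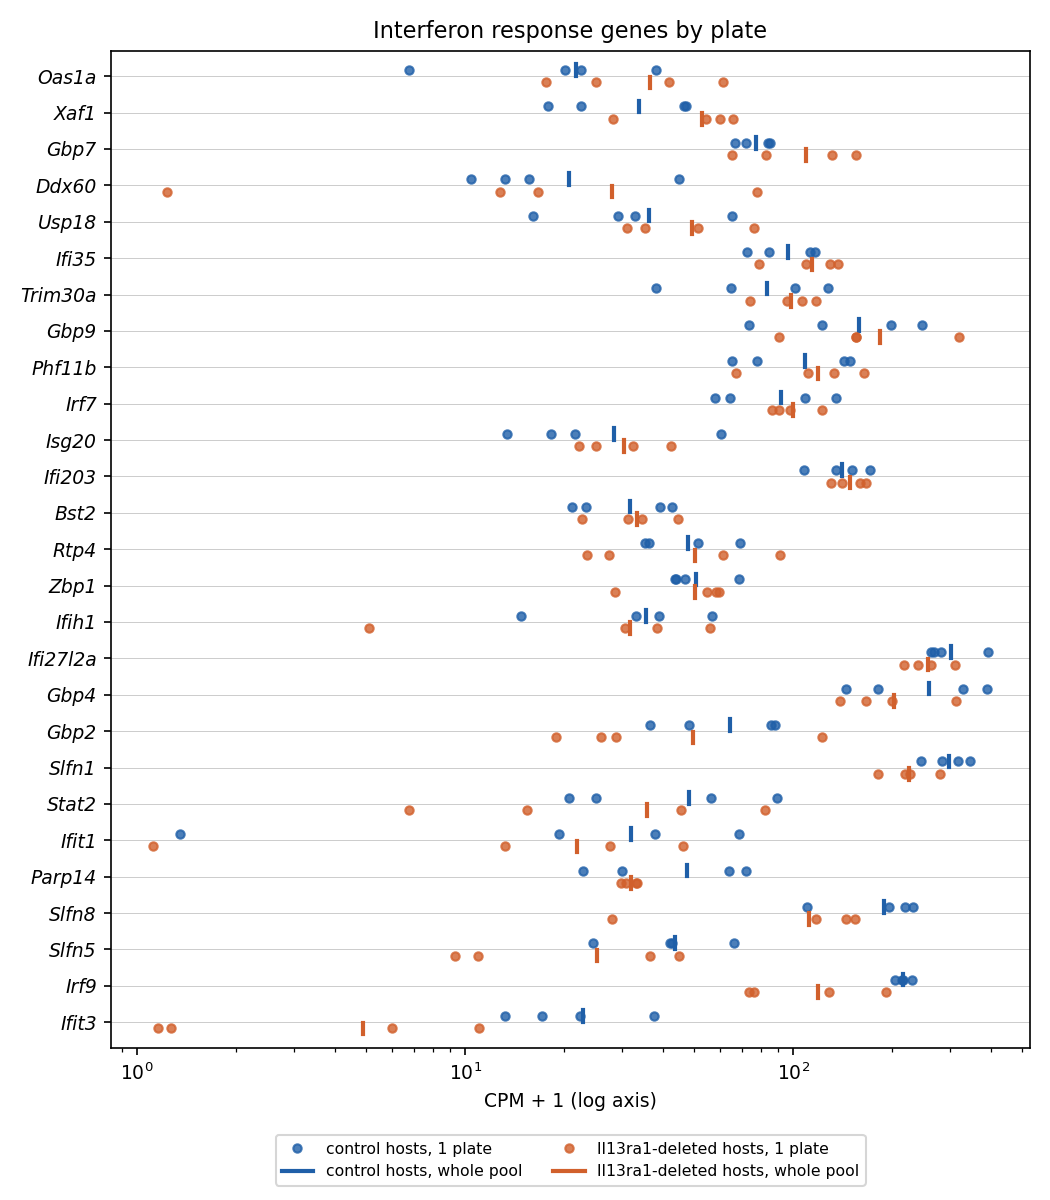
CPM plus 1 on a log axis for the 27 members at 20 CPM or more in either pool, ordered by log2 ratio, with 1 point per plate and a bar for the whole pool. Only Ifit3 and Irf9 have all 4 control plates above all 4 deleted plates, and most other members have widely interleaved points.

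Among the 3 members that are transcription factors of the interferon signal, Irf9 differed most. Irf9 (chr14:55603985-55610030), the DNA-binding subunit of the interferon complex, was at 216, 214, 230 and 203 CPM on control plates 1 to 4 and at 74.9, 128, 72.4 and 191 CPM on deleted plates 1 to 4. Control plates were close together and deleted plates were spread, with deleted plate 4 just under the lowest control plate. Pool levels were 215.6 and 118.2 CPM, a log2 ratio of -0.86, which ranged from -1.22 to -0.68 when 1 plate was left out. Positive cells numbered 91 of 368 in control (24.7%, exact 95% interval 20.4 to 29.5) and 58 of 368 in deleted hosts (15.8%, 12.2 to 19.9). By plate these were 20, 20, 27 and 24 control cells and 9, 18, 11 and 20 deleted cells, so counts of cells did overlap. When each cell was given equal weight the log2 ratio was -0.82 but no member was non-overlapping. Intervals cover counting error only, since the reads are PCR copies without molecular identifiers. In bulk sums over a pool, fewer positive cells and fewer reads per positive cell cannot be told apart, but here the median level in a positive cell is also known and was 854 CPM for control cells and 687 CPM for deleted ones.

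Some genes listed as markers of other cell types also differed in level between the pools. The summed level of 8 dendritic cell markers was 72.7 CPM in control cells, with plates from 65.4 to 86.6, and 94.9 CPM in deleted cells, with plates from 85.8 to 112. H2-Aa and H2-Ab1 were non-overlapping and higher, at 13.3 and 16.9 CPM and at 28.5 and 37.4 CPM, as were 1.81% of all measured genes. H2-Ab1 was positive in 94.8% and 99.2% of cells, so it was read at a low level in nearly every well and set no group of cells apart. Lyz2, a macrophage marker, was also non-overlapping and higher, at 10.5 to 13.9 CPM on control plates and 14.7 to 16.3 CPM on deleted plates, while the summed level of 8 macrophage and monocyte markers was 24.2 and 23.6 CPM. Itgax, the gene for CD11c, was at 0.85 and 1.08 CPM. The part of these markers in the difference of Irf9 and Ifit3 was not tested.

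The partner of Irf9, Stat2, was at 24.1, 55.3, 19.7 and 88.4 CPM on control plates and at 80.8, 44.5, 14.4 and 5.75 CPM on deleted plates. The plates overlapped in part, with deleted plates 3 and 4 below every control plate. Irf7, the factor that amplifies the type I response, was at 63.3, 56.6, 134 and 108 CPM on control plates and at 85.1, 97.0, 89.8 and 122 CPM on deleted plates. Irf7 was positive in 58 and 63 cells, with pool levels of 90.8 and 99.0 CPM, and its deleted plates all lay inside the control range.

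The RNA sensors and RNA-directed effectors were among the rarest. Ifit3 (chr19:34583119-34588982), which with Ifit1 binds viral RNA, was at 16.2, 12.2, 21.4 and 36.8 CPM on control plates and at 0.16, 10.03, 4.99 and 0.27 CPM on deleted plates. Its plates did not overlap, with pool levels of 21.8 and 3.88 CPM and a log2 ratio of -2.23, which ranged from -3.01 without deleted plate 2 to -1.85 without control plate 4. These reads came from few cells, 5 positive control cells and 3 positive deleted cells, and 1 cell held 36.7% of the control reads and another 63.6% of the deleted reads. Of the 50-base pieces of its transcripts in the GENCODE M21 annotation, 51.2% also occur in Ifit3b, so reads may be lost or shared between these near-copies. Ifit3b itself was at 0.07 and 0.04 CPM.

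Ifit1 was at 36.9, 0.36, 67.4 and 18.3 CPM on control plates and at 12.2, 45.2, 26.7 and 0.12 CPM on deleted plates, with 11 and 10 positive cells. One plate of each pool had next to no Ifit1, and the plates overlapped. Oas1a, an enzyme that makes the messenger which activates RNase L, was at 21.6, 19.2, 37.1 and 5.74 CPM on control plates and at 40.9, 24.1, 16.6 and 60.2 CPM on deleted plates. It was positive in 17 control and 23 deleted cells. The log2 ratio, 0.75, was the highest of the measured members, yet its plates overlapped, and 57.6% of its 50-base pieces also occur in Oas1g. Oas3 was at 18.2 and 14.8 CPM in the pools and Oasl2 at 9.81 and 5.48 CPM, from at most 6 positive cells in a pool. Without deleted plate 2 the log2 ratio of Oasl2 moved from -0.74 to -3.13. Ifih1, the long double-stranded RNA sensor also called MDA5, was at 34.7 and 30.9 CPM, from 22 positive control and 15 positive deleted cells. Ddx60, a helicase, was at 19.8 and 27.1 CPM, from 15 positive cells in each pool. Isg20, an RNA exonuclease, was at 27.5 and 29.6 CPM, from 21 and 24 positive cells. Zbp1, a sensor of Z-form nucleic acid, was at 49.7 and 49.3 CPM, from 54 and 53 positive cells. Plates of the 2 pools overlapped for all measured genes of this role but Ifit3.

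The ISG15 system was represented by its brake. Usp18, the protease that removes ISG15 and also dampens signalling at the receptor, was at 32.0, 15.1, 28.2 and 64.2 CPM on control plates and at 34.3, 50.4, 30.2 and 75.03 CPM on deleted plates. Isg15, the ubiquitin-like modifier, had no read in any of 368 control cells and 3 reads in 1 deleted cell. By counting error alone, 0 of 368 allows a share of cells with a read of up to 0.815% (3 cells), which sets no limit on expression. Other members were read well in the same cells, and only 3.96% of the 50-base pieces of Isg15 transcripts occur in another gene. The cause of this near absence was not tested.

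Of the proteins that act on virus particles, Bst2, which tethers budding virions, was at 38.2, 22.4, 20.1 and 41.8 CPM on control plates and at 21.7, 33.6, 43.5 and 30.3 CPM on deleted plates, with 42 and 48 positive cells. Mx1 was at 0.65 and 2.15 CPM and Rsad2, which makes a chain-terminating nucleotide, at 0.16 and 2.94 CPM. Both stayed under the measured limit, with at most 3 positive cells in a pool.

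The broadest member was Ifi27l2a, which codes for a small interferon-induced membrane protein. It was at 281, 261, 267 and 392 CPM on control plates and at 239, 262, 311 and 216 CPM on deleted plates, which overlapped. Of control cells 245 were positive (66.6%, interval 61.5 to 71.4), and of deleted cells 214 (58.2%, interval 52.9 to 63.2). Per kilobase of exon it was also the most abundant of the 35 members, at 651 and 555 CPM per kilobase, followed by Slfn1 at 160 and 120. The other induced proteins in this role were Xaf1 at 32.8 and 51.7 CPM, Rtp4 at 46.8 and 49.0, Ifi35 at 95.1 and 113, Trim30a at 82.2 and 97.2 and Parp14 at 46.5 and 30.9. Ifi44 stayed under the measured limit at 2.21 and 0.67 CPM. None of the 5 measured ones was non-overlapping. Parp14 spread from 21.9 to 71.0 CPM over control plates but only from 29.0 to 32.5 over deleted plates.

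The PYHIN family binds DNA. Ifi203 was at 140 and 148 CPM, and 109 and 110 cells were positive. Under their older symbols, Pyhin1 (Ifi209) was at 422 and 426 CPM, Pydc4 (Ifi213) at 123 and 131 and Pydc3 (Ifi208) at 190 and 129. Pydc3 spread from 141 to 242 CPM over control plates and from 67.3 to 172 over deleted plates, which overlapped.

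The guanylate-binding proteins, GTPases that attack pathogen vacuoles, were split in direction. Gbp4 was at 181, 389, 329 and 144 CPM on control plates and at 199, 312, 165 and 138 CPM on deleted plates, with 88 and 74 positive cells. Gbp9 was at 158 and 184 CPM in the pools, Gbp7 at 76.0 and 108 and Gbp2 at 63.2 and 48.3. The deleted level of Gbp2 rested on plate 3 (121 CPM against 17.9 to 27.7 on the others), and without that plate its log2 ratio moved from -0.38 to -1.40.

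Of the Schlafen family, which includes restraints of T cell growth, the 3 measured members were lower in the deleted pool with overlapping plates. Of all 9764 measured genes, 5248 had a log2 ratio below 0. Slfn1 was at 318, 245, 346 and 283 CPM on control plates and at 279, 218, 180 and 226 CPM on deleted plates, with 138 and 117 positive cells. Slfn8 was at 189 and 110 CPM and Slfn5 at 42.8 and 24.2 CPM, with log2 ratios of -0.77 and -0.80. On deleted plate 3 Slfn8 was at 27.1 CPM, while the other deleted plates were between 117 and 154. Phf11b, near Phf11d, was at 108 and 118 CPM, but 47.0% of its 50-base pieces occur in other genes. Phf11d was at 0.13 and 2.17 CPM.

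Of 88 measured other genes of the pathway, 5 had a pooled level 2-fold or more above control, against 5.98% of all measured genes, and 8 one 2-fold or more below it, against 6.71%. No ligand was measured. Ifng was positive in no control cell and in 2 deleted cells, and 7 of the 9 ligand genes listed had no read. The receptor chains were present, with Ifnar1 at 377 and 289 CPM, Ifnar2 at 99.4 and 125, Ifngr1 at 178 and 197 and Ifngr2 at 51.0 and 76.8. Jak1 was at 1122 and 1238 CPM and Tyk2 at 133 and 159. Of the 8 measured receptors and kinases, 6 had a log2 ratio above 0, beside 46.3% of all measured genes. None of the 8 was non-overlapping or 2-fold apart, and 8525 of all 9764 measured genes also lay within 2-fold. Irf1, a factor closely tied to interferon gamma, was at 454 and 496 CPM. Among the sensors and adaptors, Aim2, a DNA sensor, was at 49.3 and 17.9 CPM (log2 ratio -1.41). Irf8 was at 31.6 and 74.7 CPM (log2 ratio 1.22), and the signalling brakes Ptpn11 at 22.2 and 47.7 (log2 ratio 1.07) and Socs3 at 56.8 and 104. Plates overlapped for these 4 genes.

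In the list of 53 other type I response genes, 40 were measured, with a median log2 ratio of -0.15 and 12 of 40 above 0, beside -0.04 and 46.3% for all measured genes. Oas2 was at least 2-fold higher (3.18 and 19.3 CPM), and Oas1b, Slfn9, Phf11a and Trim30d were at least 2-fold lower, all of them under 20 CPM in both pools. Of the 40, 2 were non-overlapping and higher (1.81% of all measured genes) and 3 non-overlapping and lower (2.6%), so 35 were neither. The lower ones were Ly6e, a membrane protein that hinders virus entry, at 492 and 360 CPM, Shisa5 at 4642 and 4158 CPM and Trim30d at 18.7 and 8.11 CPM. The higher ones were Helz2 at 30.2 and 52.8 CPM and Lgals3bp at 103 and 152 CPM. The genes of this list are named after their values were seen. Of the 22 GTPase and interferon gamma response genes, 19 were measured, with a median of -0.05, 1 (Gbp5) being 2-fold higher, against 5.98% of all measured genes, and 2 being 2-fold lower, against 6.71%. The lower ones were Gbp3 (32.7 and 0.54 CPM, 12 and 3 positive cells) and Irgm2 (32.1 and 9.37 CPM, 31 and 15 positive cells).

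Within single cells the members were mostly either read at high counts or not read above background. A cell without reads may lack the transcript or have lost it in library making, which was not tested. A cell counted as positive at 10 CPM or more, and 99.5% of all reads of the members lay in positive cells. There were 2891 positive pairs of a cell and a member, with a median of 691 reads. Of these, 37 had only 1 to 4 reads, 25 of them in the 2 shallow wells. Another 7972 of the 11164 pairs with any read had 1 to 4 reads and were not positive. In 9 wells without a cell, 30 members had 194 reads in all and none had more than 4 in a well, so counts of 1 to 4 reads were at the background of empty wells. Of the 35 members, 20 were positive in under 10% of cells in both pools and only 2, Ifi27l2a and Slfn1, in over 30% in both. Isg15 had no positive cell.

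**Figure D2:**
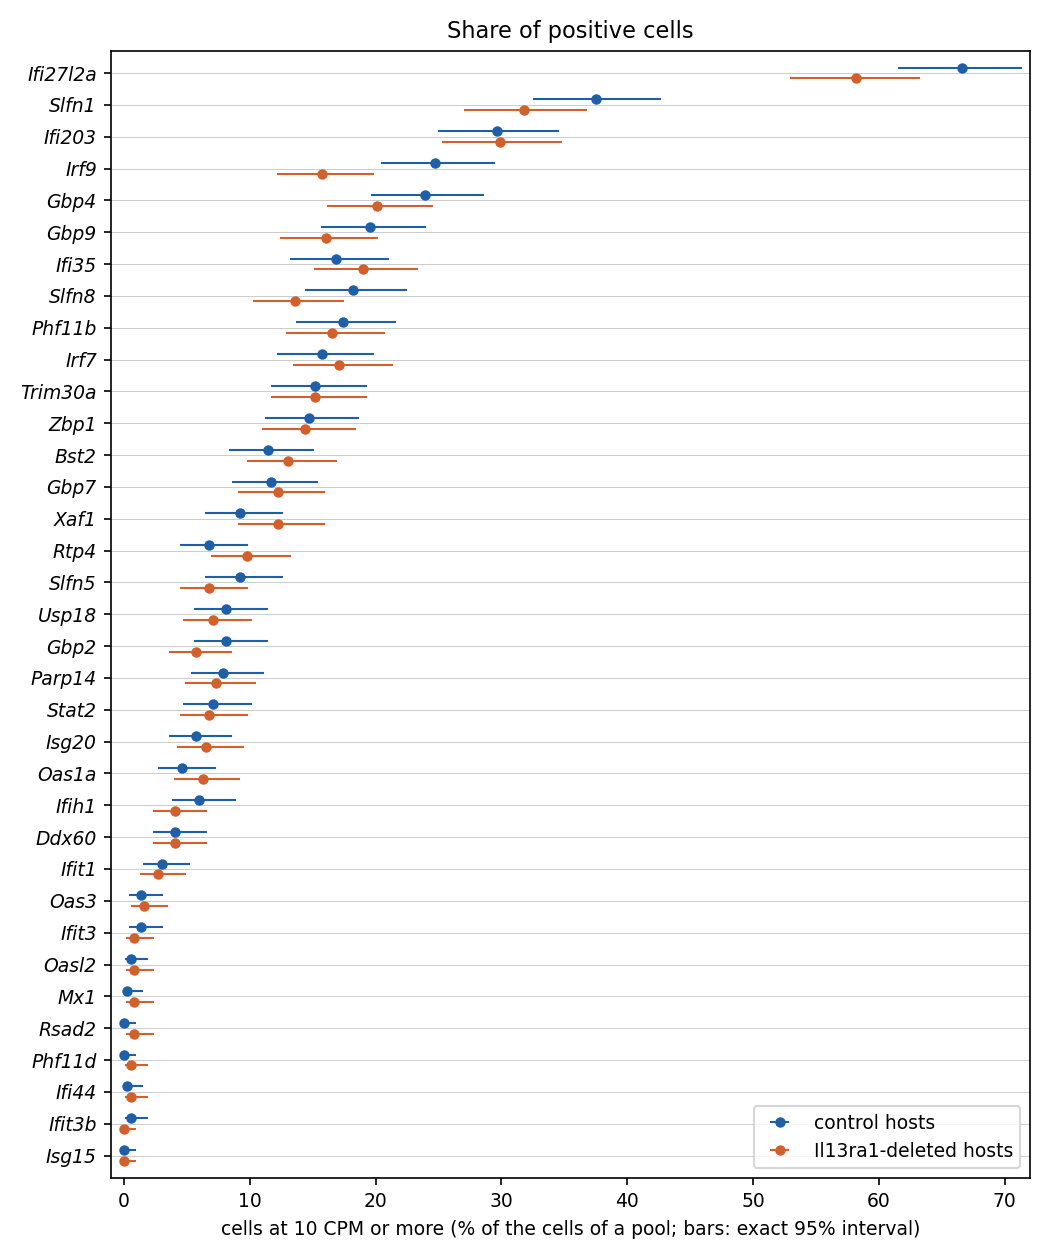
Share of the 368 cells of each pool at 10 CPM or more for each of the 35 members, with exact 95% binomial intervals for counting error. Ifi27l2a stands far to the right at 66.6% and 58.2%, and Irf9 shows the widest gap among the rest.

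A typical cell was positive for few members, and a small number of cells was positive for many. Control cells had a median of 4 positive members (mean 4.07, SD 2.45 over cells) and deleted cells a median of 3 (mean 3.78, SD 2.60, or 3.73 and 2.53 without the shallow wells). No member was positive in 9 control and 16 deleted cells. At the other end, 11 control and 12 deleted cells had 10 or more, and without the 2 shallow wells the deleted count was 10. The highest control cell had 20 positive members, among them Ifit3, Irf7, Oasl2, Oas1a, Oas3, Bst2 and Ifih1. The highest deleted cell had 17, among them Irf7, Stat2, Oas1a, Bst2, Rtp4 and Ifih1. If members were positive independently of each other, the variance over cells would equal the sum of each member's own variance. It was 2.00 times that sum in control and 2.31 times in deleted cells, or 2.21 times without the shallow wells. By plate the ratio was 1.40, 1.18, 2.59 and 2.48 in control and 2.12, 2.56, 2.16 and 2.43 in deleted hosts, where plates 1 and 4 were at 1.83 and 2.27 without the shallow wells. Every plate was above 1, and control plates 1 and 2 were the lowest. Cells with more genes detected had more positive members, with a Spearman correlation over cells of 0.24 in control and 0.23 in deleted hosts; its part in the excess was not tested.

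**Figure D3:**
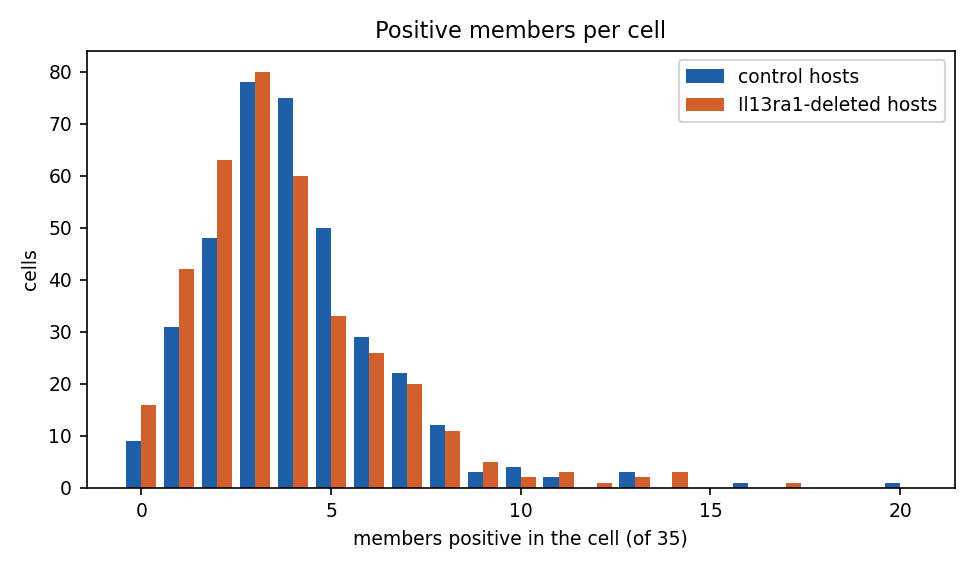
Number of the 368 cells of each pool by how many of the 35 members were positive in the cell. Both pools peak at 3 members, and a thin tail reaches 20 members in control and 17 in deleted cells.

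Pairs of members were positive in the same cell more often than the product of their shares. Among the 26 members with 10 or more positive cells, the median over 325 pairs of observed to expected cells was 1.19 in control and 1.33 in deleted cells (1.30 without the shallow wells). Over all pairs of genes with 10 or more positive cells the medians were 1.03 and 1.06. Those genes were not matched to the members by share of positive cells, so the sets of pairs may differ in their room for a high ratio. A ratio of 2 or more was found for 38 pairs (11.7%) in control, against 5.78% of all pairs, and for 55 pairs (16.9%) in deleted cells, against 6.97%. Without the shallow wells the deleted figures were 40 of 300 pairs (13.3%) and 6.25%. In both pools alike, 12 of 325 pairs (3.69%) reached 2, against 0.795% of all pairs. Without the shallow wells 8 of 300 (2.67%) did, against 0.717%, since Ifit1 then fell under 10 positive deleted cells and its 4 pairs were not counted. Ifit1 and Usp18 were positive together in 4 control cells where 0.897 were expected, and in 3 deleted cells where 0.707 were expected. Oas1a and Bst2 were together in 6 cells against 1.94 and in 9 against 3. Irf7 and Rtp4 were together in 10 cells against 3.94 and in 14 against 6.16. Of the 12, 4 rest on 3 or fewer cells in a pool. The other pairs in this group joined Ifit1 with Slfn8, Irf7 or Rtp4, Oas1a with Isg20, Rtp4 or Xaf1, Ifih1 with Rtp4 or Irf7, and Usp18 with Ddx60.

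The ratio of joint reading differed between members. For each gene, cells that were positive for it and for each other member were counted and divided by the count expected from the shares. This ratio was 1.25 or more in both pools for 10 of the 26 members and for 0.846% of 7802 genes. The 10 were Ifit1 (1.57 and 2.08), Oas1a (1.55 and 1.64), Rtp4 (1.53 and 1.60), Xaf1 (1.49 and 1.35), Bst2 (1.36 and 1.40), Trim30a (1.31 and 1.37), Isg20 (1.47 and 1.30), Irf7 (1.30 and 1.47), Usp18 (1.29 and 1.27) and Ifih1 (1.27 and 1.67). Without the shallow wells 9 of 25 members and 0.618% of genes reached it, with Ifit1 no longer counted for want of 10 positive deleted cells, and when positive meant 5 or more reads, 6 of 25 members and 0.558% of genes. The level of 1.25 was chosen after the values were seen. The most broadly read members were close to 1, with Slfn1 at 1.05 and 1.09, Ifi27l2a at 1.09 and 1.16, Ifi203 at 1.08 and 1.12 and Gbp4 at 1.10 and 1.14. The ratio cannot exceed 1 divided by a gene's own share of positive cells, so broadly read genes have less room above 1. Members were not compared with genes of like share. Irf9, with non-overlapping levels between pools, was at 1.07 in control and 1.39 in deleted cells.

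**Figure D4:**
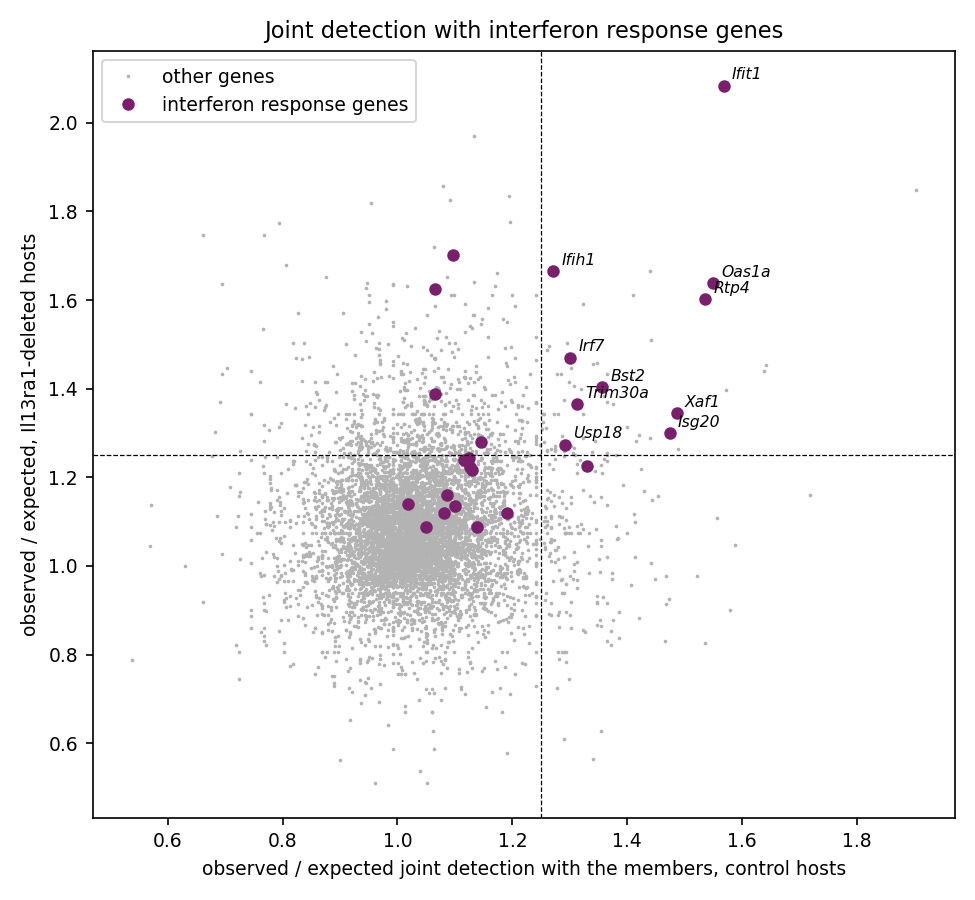
Observed over expected cells positive for a gene together with the other members, in control (x axis) and deleted hosts (y axis), for 26 members and the other genes with 10 or more positive cells in both pools. Dashed lines mark 1.25, and the 10 named members lie beyond both, where few grey points are.

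A set of 6 core members (Ifit1, Ifit3, Isg15, Usp18, Rsad2 and Irf7) was used to pick cells, so that the other members could be read in them. Isg15 was positive in no cell, Rsad2 in 0 control and 3 deleted cells, and Ifit3 in 5 and 3. The choice therefore rested mainly on Irf7 (58 and 63 positive cells), Usp18 (30 and 26) and Ifit1 (11 and 10). At least 2 core members were positive in 17 of 368 control cells (4.62%, exact 95% interval 2.71 to 7.29) and in 15 of 368 deleted cells (4.08%, interval 2.30 to 6.63). They were found on every plate, as 3, 2, 6 and 6 control cells and 4, 4, 4 and 3 deleted cells. Without the shallow wells the deleted count was 14 of 366 (3.83%, interval 2.11 to 6.33). The intervals overlap and cover the counting of cells only, and the pools were not tested against each other. These cells were positive for a mean of 6.71 of the 28 other members in control, against 3.64 in all other cells, and for 6.87 against 3.35 in deleted hosts. Without the shallow wells the deleted means were 6.57 and 3.33. Over all genes, the same cells had 1.03 times as many positive genes as other cells in control and 1.29 times in deleted hosts, or 1.17 times without the shallow wells.

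Of the 24 other members with 10 or more positive cells, 9 were at least 2 times as frequent in these cells in both pools, against 4.69% of 9496 genes. Without the shallow wells it was again 9 of 24, against 3.81%, and it was 6 of 23 without control plate 4. The 9 were Oas1a, Oas3, Bst2, Xaf1, Rtp4, Gbp9, Trim30a, Slfn8 and Parp14. Oas3 rests on 2 core cells in control and 1 in the deleted pool, and Oas1a on 3 in each. Ifi27l2a, positive in 65.5% and 57.2% of other cells, could not reach a ratio of 2. Rtp4, a receptor-transporting protein, was positive in 35.3% of the core cells and 5.41% of other cells in control, and in 33.3% and 8.78% in deleted hosts. Xaf1, a partner of the apoptosis inhibitor XIAP, was positive in 35.3% and 7.98% in control and in 40% and 11.05% in deleted hosts. Oas1a was positive in 17.6% and 3.99%, and in 20% and 5.67%. Gbp4 went the other way in both pools, with 11.8% of core cells and 24.5% of other cells in control and 13.3% and 20.4% in deleted hosts, which rests on 2 core cells in each.

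**Figure D5:**
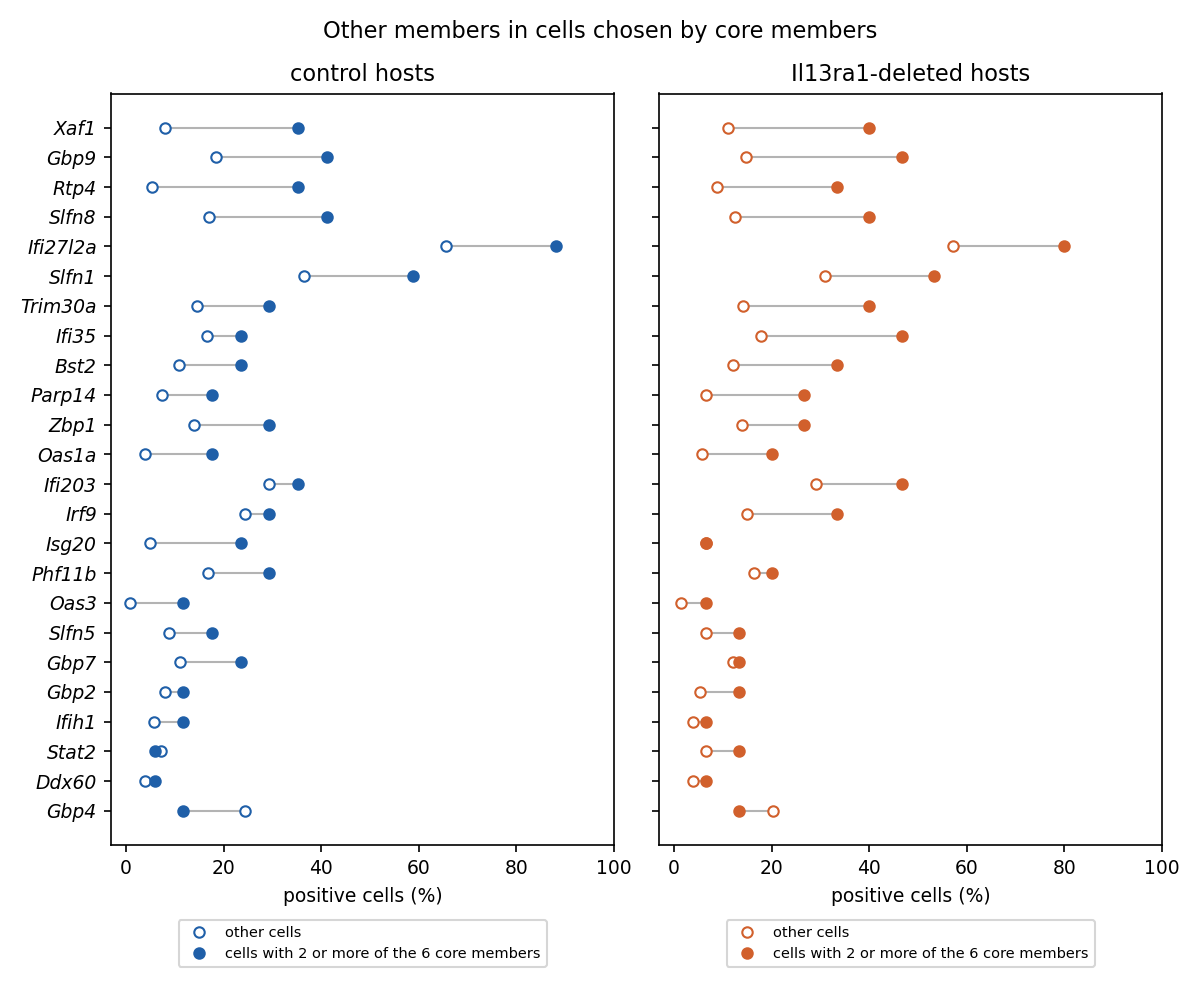
Share of cells positive for each of 24 other members, in cells with 2 or more positive core members (filled) and in all other cells (open), for control (left, 17 core cells) and deleted hosts (right, 15 core cells). Filled points lie to the right for most members in both pools, and Gbp4 is the one with the filled point on the left in both.

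Genes of the wider pathway behaved alike in part. Of 84 listed genes with enough positive cells, 12 (14.3%) were at least 2 times as frequent in the core cells in both pools, against the 4.69% of all genes, and 9 of 82 without the shallow wells, against 3.81%. The 12 were the RNA sensor genes Ddx58 and Dhx58, then Ifit2, Oas2, Oasl1, Cmpk2, Herc6, Nmi, Slfn9, Gbp6, Gbp10 and Irgm2. These names and the shares below are from all cells, with 15 deleted core cells, against 14 without the shallow wells. Oas2 and Slfn9 rest on 1 core cell in each pool, Oasl1 on 1 in the deleted pool and Cmpk2 on 2 in each. Dhx58 was positive in 23.5% of core cells and 5.13% of other cells in control, and in 26.7% and 4.82% in deleted hosts. Receptors and kinases were not among the 12. Jak1 was positive in 88.2% and 79.8% in control and in 86.7% and 84.4% in deleted hosts. With such shares in other cells, Jak1 could not have been 2 times as frequent in core cells. Ifnar2 and Tyk2 were read in fewer cells and could have been. Ifnar2 was positive in 23.5% and 16.5% in control and in 13.3% and 19.5% in deleted hosts. Tyk2 was positive in 5.88% and 15.1%, and in 26.7% and 16.1%.

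Markers of plasmacytoid dendritic cells, which make much type I interferon, were read beside this. At least 1 of the 8 was positive in 43.8% of the core cells and 19.5% of other cells over both pools. That list contains Bst2, itself a member, and Irf8. Bst2 alone was positive in 23.5% of core cells and 10.8% of other cells in control, and in 33.3% and 12.2% in deleted hosts. The raised share thus in part repeats the result for Bst2, and the share without Bst2 was not computed. Siglech, the defining marker in the list, was at 0.06 CPM in both pools with no positive cell. The summed level of the 8 markers over plates was 71.9 to 132 CPM for control and 81.1 to 173 CPM for deleted plates. At least 1 of the 8 CD4 T cell markers was positive in every cell of both sets, so this share cannot tell the sets apart. At least 1 of 6 B cell markers was positive in 2 of the 32 core cells (6.25%), against 1.70% of other cells. The shares for all these marker lists include the shallow wells, where 1 read makes a gene positive.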

How the data were processed

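The deposited files hold raw read counts, as whole numbers for each gene and well, for 8 plates, 4 per pooled sample. Per the submitters' processing notes they were made with featureCounts 2.0.1 on build mm10. Which aligner, annotation and strand setting were used, and how reads with several matches were counted, is not given in the sources used here. The labels' protocols describe oligo(dT) priming and 25 cycles of PCR and name no molecular identifiers. All cell wells entered the main values. Doublets were not called, as 1 cell was sorted per well, and whether every cell well held a cell was not tested.

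Reads were summed per plate and pool and scaled to CPM, with exact Poisson intervals. Clopper-Pearson 95% intervals are given with shares of cells, and a count of 0 was given a limit of 3 counts. Depth was a median of 1592794 reads per control cell and 1499762 per deleted cell. Members, gene lists and tests were chosen with earlier results of these data known. Any member could be named, members at 20 CPM or more have plate values, and from each pathway list up to 4 of the largest ratios at 20 CPM or more could be named beside fixed receptors and factors. Other genes were named after their values were seen. Some genes that the rule names are withheld and not reported here. Exon lengths, shared 50-base pieces and overlaps with other genes (at most 16.8% of a member's exon bases, in Ifi35; Irf9 shares 2.28% with Rnf31) come from GENCODE M21 and promoters from RefSeq, GRCm38.p6. Alternatives were other scalings, a pseudocount of 0.1, positivity at 50 CPM or 5 reads, cells thinned to 500000 reads, other numbers of core members and each plate left out. Leaving out the 2 shallow wells and adding the 3 older symbols were chosen after seeing the data. The scripts were tested on simulated data. Python 3.11.15, numpy 2.4.6, pandas 2.3.3 and scipy 1.17.1 were used.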

Additional observations from a re-analysis of the deposited data

Results flagged for a closer look

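On 5 of the 54 sets of 4 plates, 1 plate lay far from the other 3. Chance alone flags about 1 in 20 such sets. Ifi27l2a was at 392 CPM on control plate 4, against 261 to 281 on the others. Zbp1 was at 67.5 CPM on control plate 3, above the rest of the pool, and at 27.7 CPM on deleted plate 2, below the rest. Gbp2 was at 121 CPM on deleted plate 3, and Ddx60 at 43.9 CPM on control plate 2.

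Signal also appeared in control wells outside the comparisons, whose names mBM10 and mBM100 the labels do not explain. The summed reads of the members had a median of 1332 per well in 13 mBM10 wells (535 to 2232) and 487.5 in 10 mBM100 wells (25 to 1621), while the 9 wells without a cell had 15 to 34. As a share of each well's reads the wells without a cell were highest, with a median of 2090 CPM against 787 CPM in mBM10 and 628 CPM in mBM100 wells. Isg20 had a median of 257 reads in mBM10 and 72 in mBM100 wells, and Rsad2 one of 42 and 45, with at most 2 and 1 reads in a well without a cell. One mBM100 well held only 11622 reads.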

How the results depend on the processing

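Over 29 members, 375 of 377 recomputed log2 ratios moved by less than the spread between plates, although 15 members turned sign with 1 plate left out (Ifit1 from -1.21 to 0.15). The exceptions were Oasl2 (-3.13 without deleted plate 2) and Gbp2 (-1.40 without deleted plate 3). For the main values over sets of members or of cells, 93 recomputed values stayed near the main one and 23 moved beyond a set limit. The median log2 ratio ranged from -0.11 to 0.15 when 1 plate was left out. The count of non-overlapping lower members was 0 with each cell weighted equally. The count of members 2-fold lower ranged from 1 to 5 with 1 plate left out and was 2 with equal cell weights or without the highest cell of each pool. The median pair ratio ranged from 1.13 to 1.26 in control and 1.32 to 1.35 in deleted cells with 1 plate left out, and in deleted cells was 1.31 at 50 CPM, 1.26 at 5 reads and 1.30 without the shallow wells. Core cells were 22.6% and 23.4% with 1 core member and 0.543% and 1.09% with 3, and 4 other members passed at either setting, while 6 to 10 passed with 1 plate left out. The cause was not tested. No paired analysis was possible because each group is 1 pooled sample and the labels' mouse numbers pair no samples. With cells thinned to 500000 reads, core cells were 18 and 14 and 8 of 24 other members passed.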
